A study of Mus musculus with 4 samples.

Results

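The genes described here encode the enzymes of cholesterol and fatty acid synthesis, their sterol-sensing regulators and 1 sterol carrier, in mouse embryonic stem (ES) cells in which Atad2 was knocked down. They were taken from a list of 31 symbols, and all 31 had at least 1 named row among the 22617 genes of the expression tables. Of the 11134 genes that could be tested, 30 were members. Fdft1, squalene synthase, was not tested, because its main transcript had the status LOWDATA in every library, which Cuffdiff, the authors' software, gives to loci too complex or too shallow to test.

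Cells build cholesterol from acetyl-CoA through mevalonate, farnesyl diphosphate, squalene and lanosterol, and build fatty acids from the same acetyl-CoA through malonyl-CoA. Both routes share a switch. When membrane sterol is low, Scap escorts the transcription factors Srebf1 and Srebf2 (SREBP-1 and SREBP-2) from the endoplasmic reticulum to the Golgi, where they are cut and released to the nucleus. When sterol is plentiful, Insig proteins hold Scap back. The released factors bind sterol regulatory elements, usually beside sites of NF-Y and Sp1, and the genes of both routes are known to move together for this reason.

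The 4 libraries came from 46C ES cells, a mouse line, with a knock-in that gives Atad2 a TAP tag. Atad2 is a chromatin-bound AAA ATPase with a bromodomain. All were kept in serum medium with LIF on gelatin, and both groups carry the tagged allele, so that no untagged line was part of the comparison. The si-ctrl group holds 2 libraries from cells given a scrambled siRNA, and the si-Atad2 group 2 libraries from cells given an active anti-Atad2 siRNA. Per the study's description, more than 1 active siRNA was used and every RNA sample went through sequencing again, and which siRNA belongs to which library is not given in the sources used here. The replicates may therefore be repeat sequencing of the same RNA, and p-values measure only the spread between these libraries, which may be technical. Values are FPKM (fragments scaled to transcript length and to the size of the library), which are already per length. The authors computed them in 2 runs, each of 1 si-Atad2 and 1 si-ctrl library with the same replicate number (pair 1 and pair 2), and the change on knockdown was therefore taken within a pair, as log2((si-Atad2 + 1)/(si-ctrl + 1)). This scale understates the change of weakly expressed genes. Depth per library is unknown, since the tables hold no counts and low values fell on no whole-read steps.

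Atad2 itself stood at 34.1 FPKM in si-ctrl 1, against 10.1 FPKM in si-Atad2 1, and at 36.0 FPKM in si-ctrl 2, against 13.0 FPKM in si-Atad2 2. The knockdown left 29.6% and 36.2% of the control level (mean log2 ratio -1.53, SE 0.077, adjusted p = 0.000177 by limma). Markers of ES cells matched the label. All 10 of them lay at 1 FPKM or more in every library. Their summed level was 3526 and 3532 FPKM in si-ctrl and 3313 FPKM in both si-Atad2 libraries. None passed the test by limma, while 4 were lower at an unadjusted p under 0.05 (Pou5f1, Nanog, Dppa5a and Utf1), against 7.53% of all genes. Feeder fibroblast markers summed to 9.50 to 10.6 FPKM, with Lum listed at 0 in all 4 libraries, primitive endoderm markers to 6.68 to 7.36 FPKM, and early neural and mesoderm markers to 9.92 to 10.9 FPKM.

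The promoters of 24 of the 31 members are in the RefSeq promoter table of GRCm38.p6, and no entry was found for Fdps, Fdft1, Sqle, Stard4, Scd1, Scd2 and Fads1. Of the 24, 6 are printed as examples: steps of the mevalonate route (Hmgcs1, Mvk, Mvd), a late sterol isomerase (Ebp), fatty acid synthase (Fasn), and Insig1. Insig1 was the only tested member higher in si-Atad2 in both pairs. Each stretch runs 5′ to 3′ on the strand of the gene up to the RefSeq start, except Insig1, which ends 50 bases before it, and bases inside annotated exons were left out. Capitals mark matches, on either strand, to the NF-Y box CCAAT and, in Hmgcs1 alone, to the sterol regulatory element TCACNCCAC.
Hmgcs1: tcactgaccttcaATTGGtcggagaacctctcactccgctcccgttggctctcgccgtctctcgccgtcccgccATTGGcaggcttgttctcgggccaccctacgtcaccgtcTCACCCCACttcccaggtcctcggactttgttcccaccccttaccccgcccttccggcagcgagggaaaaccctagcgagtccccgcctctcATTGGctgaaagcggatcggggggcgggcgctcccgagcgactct
Mvk: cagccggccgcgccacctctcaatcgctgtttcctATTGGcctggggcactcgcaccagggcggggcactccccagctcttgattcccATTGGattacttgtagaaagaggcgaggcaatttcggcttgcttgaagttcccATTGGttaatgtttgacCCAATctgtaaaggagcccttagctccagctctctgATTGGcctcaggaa
Mvd: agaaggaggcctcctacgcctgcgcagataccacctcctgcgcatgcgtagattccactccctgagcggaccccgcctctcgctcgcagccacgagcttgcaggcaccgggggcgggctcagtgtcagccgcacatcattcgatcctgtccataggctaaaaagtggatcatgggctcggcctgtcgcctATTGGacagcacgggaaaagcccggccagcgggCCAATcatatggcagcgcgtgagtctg
Ebp: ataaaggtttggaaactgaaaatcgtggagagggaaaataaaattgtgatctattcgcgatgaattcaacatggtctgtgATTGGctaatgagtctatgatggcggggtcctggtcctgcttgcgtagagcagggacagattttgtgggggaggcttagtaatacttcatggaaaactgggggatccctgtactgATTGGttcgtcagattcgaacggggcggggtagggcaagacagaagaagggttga
Fasn: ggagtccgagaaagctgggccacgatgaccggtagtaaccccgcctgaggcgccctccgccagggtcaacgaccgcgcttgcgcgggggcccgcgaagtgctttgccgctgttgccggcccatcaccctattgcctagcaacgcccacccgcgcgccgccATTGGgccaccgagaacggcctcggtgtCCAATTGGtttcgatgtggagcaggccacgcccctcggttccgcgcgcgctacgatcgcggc
Insig1: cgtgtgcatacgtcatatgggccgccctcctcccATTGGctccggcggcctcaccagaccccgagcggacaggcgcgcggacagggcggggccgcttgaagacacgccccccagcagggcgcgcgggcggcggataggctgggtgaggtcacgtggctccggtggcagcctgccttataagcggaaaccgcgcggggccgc
The Hmgcs1 stretch lies at chr13:119690101-119690350 (plus strand), that of Mvk at chr5:114444061-114444268 (plus strand), that of Mvd at chr8:122443423-122443672 (minus strand), that of Ebp at chrX:8193513-8193762 (minus strand), that of Fasn at chr11:120824548-120824797 (minus strand) and that of Insig1 at chr5:28071162-28071362 (plus strand). In the Fasn stretch a pair of matches on opposite strands overlaps. Within 250 bases before the start, CCAAT was found in 18 of the 24 member genes with an entry (75%), beside 41.1% of the 8786 tested genes with an entry and 37.5% of all 27025 genes. No CCAAT match was found for Acat2, Scap, Acly, Acaca, Elovl6 and Fads2. Fasn was thus the only fatty acid gene with an entry that held a match. All 6 printed genes hold one, so they do not stand for the genes without. In the printed stretches, Mvk held 5 CCAAT matches, Hmgcs1 and Fasn 3 each, Mvd and Ebp 2 each, and Insig1 had 1. The strict form TCACNCCAC was found in 1 of the 24, Hmgcs1, with its first base 137 bases before the start, beside 1.26% of the tested genes. These are matches of letters, not measured binding sites.

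Most members were well expressed. In si-ctrl the highest mean was that of Acly (115 FPKM), the ATP citrate lyase that makes cytosolic acetyl-CoA, followed by the desaturase Scd2 (85.3 FPKM), Fasn (75.2 FPKM), Hmgcs1 (63.9 FPKM), which makes HMG-CoA, Fads2 (55.7 FPKM) and Srebf2 (54.3 FPKM). The lowest were Tm7sf2 (3.88 FPKM), a sterol reductase, Hsd17b7 (4.39 FPKM), a 3-ketosteroid reductase, and Idi1 (5.06 FPKM), the isopentenyl diphosphate isomerase. Among all tested genes these members ranged from the 26.2th percentile of level (Tm7sf2) to the 96.5th (Acly). Srebf2, whose product chiefly drives the cholesterol genes, stood at 55.2 and 53.4 FPKM in the si-ctrl libraries, and Srebf1 at 21.5 and 19.8 FPKM. The Srebf2 level is a sum over transcripts, of which the main one held 35.3 and 34.2 FPKM.

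**Figure D1:**
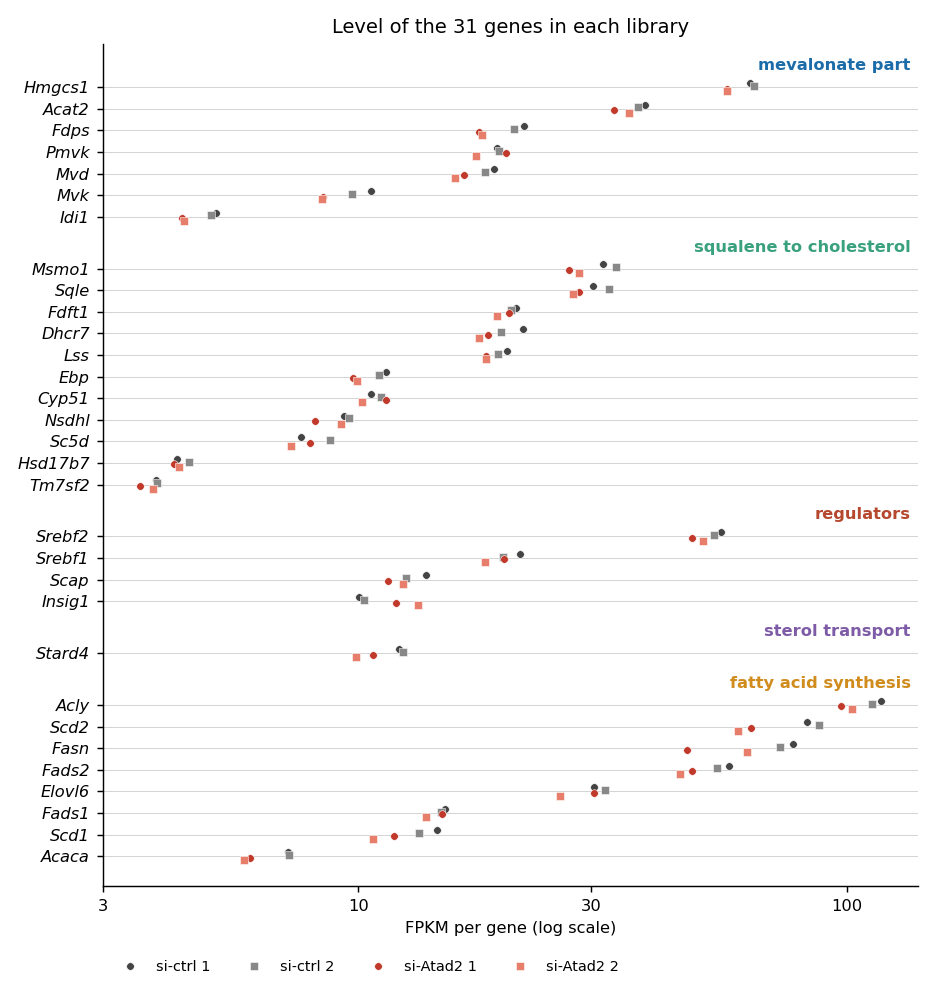
Level of each of the 31 members (FPKM, log scale) in the 4 libraries, grouped by role, with black and grey for si-ctrl, 2 shades of red for si-Atad2, circles for replicate 1 and squares for replicate 2. The red points lie left of the black and grey ones for most genes, by small distances, Insig1 shows the reverse, and Fasn has the most scattered si-Atad2 libraries, at 47.2 and 62.4 FPKM.

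The comparison of si-Atad2 with si-ctrl asks which genes differ in level between these libraries. Whether a difference depends on Atad2 itself was not tested. For lipid synthesis, the difference was small and mostly shared. In both pairs, 26 of the 30 tested members were lower in si-Atad2 (86.7%), against 33.9% of all genes tested. Insig1 was the 1 member higher in both (3.33%), against 28.5%. When the libraries were rescaled to TPM, 21 members were lower in both pairs. The members were chosen with earlier results of these data known, this count was chosen after seeing the data, and all members share the same 4 libraries. Member shares beside those of all genes, here and below, therefore describe and do not test. Pmvk, Cyp51 and Sc5d had opposite signs in the 2 pairs. Pair 1 gave the members a median log2 ratio of -0.19 and pair 2 one of -0.15, with a median of the means of -0.165, where the median of all genes was -0.008 and that of the 5488 genes at 10 FPKM or more -0.027.

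By limma on the 2 ratios of each gene, with Benjamini-Hochberg adjustment over all genes, 1 member fell (Scd2, 3.33% of 30) against a background of 0.26% of genes lower, and 0 members rose, against 1.02% of genes higher. At an unadjusted p under 0.05, 16 members were lower (53.3%), against 7.53% of all genes, and 1 was higher (Insig1), against 8.01%. Both si-Atad2 libraries lay under both si-ctrl libraries for 23 members (76.7%), against 26.6% of genes, and over both for 1, against 22.3%. A two-sided exact permutation test of a single gene that ignores the pairs cannot go below 0.333 with groups of 2. One that keeps the 2 pairs has a higher floor still. Single-gene calls therefore rest on the variance that limma shares between genes.

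**Figure D2:**
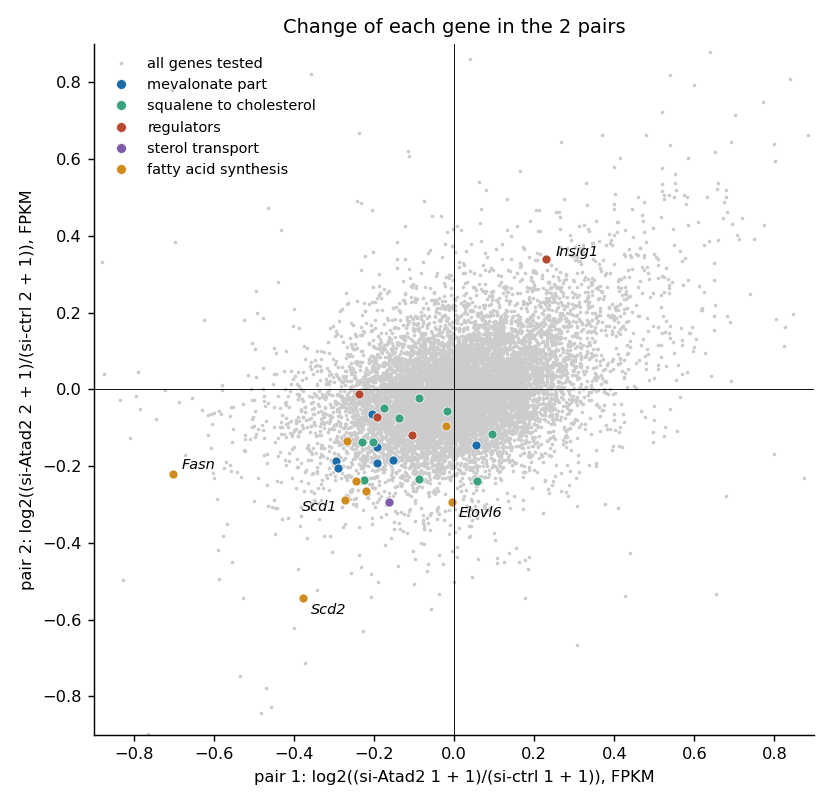
Log2 ratio, si-Atad2 over si-ctrl, with pair 1 on the horizontal and pair 2 on the vertical axis, each point a gene, for all genes tested (small grey points, 16 lie outside the axes) and for the 30 tested members (coloured by role). Most members sit in the lower left, Scd2 and Fasn farthest out at -0.38 and -0.54, and at -0.70 and -0.22, and Insig1 is the one member in the upper right.

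The fatty acid branch held the largest differences. All 8 of its members were lower in both pairs, against 33.9% of all genes tested, and their median log2 ratio was -0.24. At an unadjusted p under 0.05 by limma, 6 of the 8 were lower, against 7.53% of all genes. Scd2 (chromosome 19, 44293674 to 44306864, plus strand of GRCm38) encodes a stearoyl-CoA desaturase, which puts the first double bond into saturated fatty acids. In pair 1, si-ctrl had 82.9 FPKM (the authors' 95% interval ran from 81.8 to 84.1) and si-Atad2 63.6 FPKM (62.6 to 64.7). In pair 2, si-ctrl had 87.7 FPKM (86.5 to 89.0) and si-Atad2 59.9 FPKM (58.9 to 60.9). The groups did not overlap, and 76.7% and 68.2% of the control level remained. Scd2 fell by 0.46 on the log2 scale (SE 0.063, adjusted p = 0.0132 by limma). The adjusted p was 0.0922 with the trend of the ratios with GC content removed, 0.137 with transcripts under 200 bases included in the fit and 0.422 with no filter on low genes, although its log2 ratio stayed between -0.47 and -0.43 in all settings that kept both pairs.

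Its neighbour in function and position, Scd1 (chromosome 19, 44394455 to 44407879, minus strand), stood at 14.5 and 13.3 FPKM in the si-ctrl libraries and at 11.8 and 10.7 FPKM in the si-Atad2 libraries. The groups did not overlap, and the log2 ratio was alike in the 2 pairs, -0.27 and -0.29 (mean -0.28, SE 0.067, adjusted p = 0.0968 by limma). The FPKM of Scd1 and Scd2, which are similar genes, depend on how shared reads were split, which is not given in the sources used here.

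Fasn (chromosome 11, 120805846 to 120824547, minus strand), the synthase that builds palmitate, was listed as 1 transcript. It stood at 77.4 FPKM in si-ctrl 1, 72.9 FPKM in si-ctrl 2, 47.2 FPKM in si-Atad2 1 and 62.4 FPKM in si-Atad2 2. Both si-Atad2 libraries were lower than both controls, but they differed from each other by 0.40 on the log2 scale, more than the si-ctrl libraries did (-0.09). Pair 1 gave a log2 ratio of -0.70 and pair 2 one of -0.22 (mean -0.46, SE 0.100, adjusted p = 0.0739 by limma), so that the size of the difference rested mainly on si-Atad2 1. Its adjusted p by limma was under 0.05 in 1 of 13 settings, at 0.03, where transcripts were not named by nearest length and fewer genes were tested.

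The steps before Fasn were also lower in both pairs, Acaca in pair 2 by more than Fasn (-0.265 against -0.22). Acaca, the acetyl-CoA carboxylase that makes malonyl-CoA, stood at 7.19 and 7.23 FPKM in si-ctrl and at 6.02 and 5.85 FPKM in si-Atad2 (mean log2 ratio -0.24, SE 0.072, adjusted p = 0.158 by limma). Acly stood at 117 and 113 FPKM in si-ctrl and at 97.4 and 102 FPKM in si-Atad2, with log2 ratios of -0.27 and -0.13. For Acaca and Acly, both si-Atad2 libraries lay under both controls, as they did for 26.6% of all genes tested. The Acaca locus is shared with another coding gene, and its main transcript of 9032 bases was named by nearest length.

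Among the enzymes that modify fatty acids, Fads2, the delta-6 desaturase, stood at 57.3 and 54.1 FPKM in si-ctrl and at 48.2 and 45.6 FPKM in si-Atad2, with log2 ratios of -0.25 and -0.24 (mean -0.24, SE 0.058, adjusted p = 0.1 by limma). Its sum joins a transcript of 1508 bases and a separate one of 386 bases, each at a comparable FPKM, so its level is counted over 2 pieces, and both pieces were lower in both pairs. The adjacent Fads1, the delta-5 desaturase, differed little, with 15.1 and 14.8 FPKM in si-ctrl and 14.9 and 13.8 FPKM in si-Atad2, and its groups overlapped. Elovl6, which lengthens palmitate, was at 30.4 FPKM and 30.3 FPKM in pair 1 and at 32.0 FPKM and 25.9 FPKM in pair 2 (si-ctrl first), with log2 ratios of -0.006 and -0.29 for the sum of its transcripts. Its main transcript, of 5949 bases, was lower in both pairs with separate intervals (25.5 against 23.3 FPKM and 27.0 against 21.0 FPKM), while one of 5797 bases was higher, at 1.05 against 2.97 FPKM in pair 1 and 1.24 against 1.72 FPKM in pair 2.

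**Figure D3:**
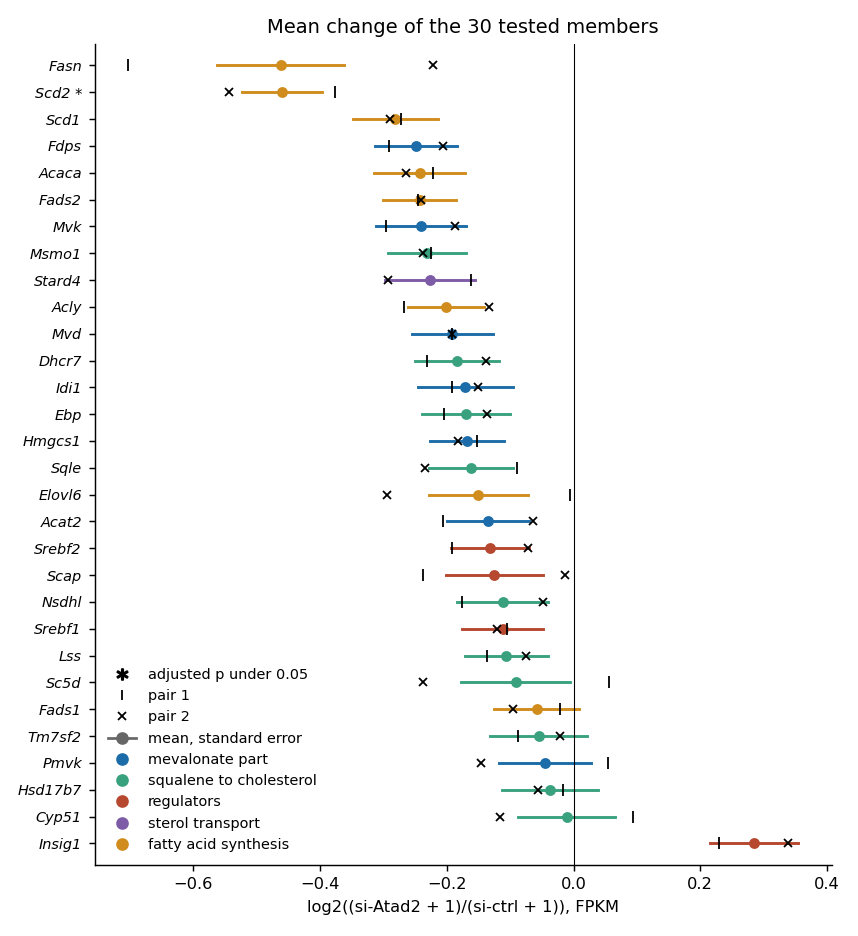
Mean log2 ratio of si-Atad2 over si-ctrl for the 30 tested members (points, coloured by role, with the standard error as bars) and the ratio of pair 1 (vertical ticks) and pair 2 (crosses). Scd2 carries the asterisk of an adjusted p under 0.05, 29 means lie left of 0, and the ticks and crosses of Fasn and Elovl6 lie far apart.

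The mevalonate route converts acetyl-CoA to farnesyl diphosphate. Of its 7 members, 6 were lower in both pairs, against 33.9% of all genes tested, with a median log2 ratio of -0.17. At an unadjusted p under 0.05 by limma, 5 were lower, against 7.53% of all genes, and 0 passed the adjusted threshold. Fdps, farnesyl diphosphate synthase, stood at 21.9 and 20.9 FPKM in si-ctrl and at 17.7 and 17.9 FPKM in si-Atad2 (mean log2 ratio -0.25, SE 0.065, adjusted p = 0.126 by limma). Mvk, mevalonate kinase, stood at 10.6 and 9.73 FPKM in si-ctrl and at 8.48 and 8.43 FPKM in si-Atad2 (mean log2 ratio -0.24, SE 0.071, adjusted p = 0.158 by limma). For both genes the si-Atad2 libraries lay close to each other and under both controls. They lay under both controls for 26.6% of all genes tested. Fdps and Mvd lie at loci with another coding gene, and their main transcripts were named by nearest length.

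Mvd, the decarboxylase that makes isopentenyl diphosphate, stood at 18.9 and 18.2 FPKM in si-ctrl and at 16.4 and 15.8 FPKM in si-Atad2, 86.9% of the control in each pair. Hmgcs1 stood at 63.2 and 64.6 FPKM in si-ctrl and at 56.7 and 56.8 FPKM in si-Atad2, with a mean log2 ratio of -0.17. Idi1 stood at 5.13 and 4.99 FPKM in si-ctrl and at 4.37 and 4.40 FPKM in si-Atad2. For these 3, both si-Atad2 libraries lay under both controls, as they did for 26.6% of all genes tested. Acat2, which joins 2 acetyl-CoA, was lower by -0.21 in pair 1 and -0.06 in pair 2. Pmvk, phosphomevalonate kinase, was the exception of this route, with log2 ratios of 0.055 and -0.146 and overlapping groups. It lies between Mvk and Mvd in the pathway.

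From squalene to cholesterol, 8 of the 10 tested members were lower in both pairs, against 33.9% of all genes tested. Of these, 4 had an unadjusted p under 0.05 (Sqle, Msmo1, Ebp and Dhcr7), against 7.53% of all genes lower. The median log2 ratio was -0.11. By limma 0 passed the adjusted threshold. Msmo1, the sterol C4-methyl oxidase, stood at 31.7 and 33.6 FPKM in si-ctrl and at 27.0 and 28.4 FPKM in si-Atad2 (mean log2 ratio -0.23, SE 0.061, adjusted p = 0.128 by limma), the lowest mean ratio of this branch. Dhcr7, which completes cholesterol, stood at 21.8 and 19.6 FPKM in si-ctrl and at 18.4 and 17.7 FPKM in si-Atad2. Both genes were lower in each si-Atad2 library than in either control, as were 26.6% of all genes tested.

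Sqle, squalene epoxidase, stood at 30.2 and 32.5 FPKM in si-ctrl and at 28.3 and 27.5 FPKM in si-Atad2, and Ebp, the sterol isomerase, at 11.4 and 11.0 FPKM in si-ctrl and at 9.76 and 9.94 FPKM in si-Atad2. Lss, lanosterol synthase, and Nsdhl, a sterol dehydrogenase, had mean log2 ratios of -0.11 each. The remaining steps differed less, namely Tm7sf2 (-0.055, its main transcript named by nearest length), Hsd17b7 (-0.04), Sc5d (-0.09) and Cyp51 (-0.01), the lanosterol demethylase, which stood at 10.6 and 11.1 FPKM in si-ctrl and at 11.4 and 10.2 FPKM in si-Atad2. For Cyp51, Sc5d and Hsd17b7 the groups overlapped. Fdft1, outside the test, was listed at 21.1 and 20.6 FPKM in si-ctrl and at 20.3 and 19.2 FPKM in si-Atad2, 96.4% and 93.4% of the control. Nearly all of it came from a transcript of 3561 bases that was named by nearest length at a locus with another coding gene.

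Among the regulators, Insig1 stood apart from the other members. This endoplasmic reticulum protein retains Scap, and its own gene is a known SREBP target. It lies on chromosome 5 (28071363 to 28078662, plus strand) and was listed as 1 transcript. In pair 1, si-ctrl had 10.1 FPKM (the authors' 95% interval ran from 9.48 to 10.7) and si-Atad2 11.97 FPKM (11.3 to 12.6). In pair 2, si-ctrl had 10.3 FPKM (9.65 to 10.9) and si-Atad2 13.3 FPKM (12.6 to 13.9). Both si-Atad2 libraries were higher than both controls, by log2 ratios of 0.23 and 0.34 (mean 0.285, SE 0.070, adjusted p = 0.107 by limma). It did not pass the threshold in any of the 13 settings in which it was tested, with adjusted p values by limma from 0.064 to 0.451. Its direction was the reverse of that of Scd2 and most enzymes named here.

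The other regulators were lower in both pairs by small amounts. Srebf2 stood at 55.2 and 53.4 FPKM in si-ctrl and at 48.2 and 50.7 FPKM in si-Atad2 (log2 ratios -0.19 and -0.07). Its main transcript, of 4570 bases, went from 35.3 to 33.1 FPKM and from 34.2 to 33.5 FPKM (si-ctrl first). The intervals of this transcript overlapped in pair 2. A shorter one, of 1963 bases, went from 10.65 to 7.38 FPKM and from 10.16 to 8.08 FPKM, with separate intervals in both pairs. Scap stood at 13.8 and 12.5 FPKM in si-ctrl and at 11.5 and 12.4 FPKM in si-Atad2 (-0.24 and -0.01). Its main transcript, of 4130 bases, was lower in both pairs with separate intervals (12.5 against 10.4 FPKM and 11.4 against 10.1 FPKM, si-ctrl first). Another Scap transcript, of 4286 bases, went from 1.31 to 1.14 FPKM in pair 1 and from 1.14 to 2.31 FPKM in pair 2. Srebf1 stood at 21.5 and 19.8 FPKM in si-ctrl and at 19.9 and 18.1 FPKM in si-Atad2 (-0.105 and -0.12). None of the 3 had an unadjusted p under 0.05 by limma. Most of the Srebf1 sum came from a transcript of 4299 bases (17.8 to 17.1 FPKM in pair 1 and 16.1 to 15.4 FPKM in pair 2, si-ctrl first). A second of 4284 bases, named by nearest length at a locus with another coding gene, went from 3.71 to 2.78 FPKM and from 3.65 to 2.76 FPKM, with separate intervals in both pairs. How Cuffdiff divided reads between such similar transcripts limits these 2 values. Stard4, a sterol carrier of the cytosol, stood at 12.1 and 12.3 FPKM in si-ctrl and at 10.7 and 9.89 FPKM in si-Atad2 (mean log2 ratio -0.23, SE 0.071, adjusted p = 0.179 by limma).

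The differences were set against the spread of the replicates. If the replicates are repeat sequencing of the same RNA, that spread is technical and leaves out differences between transfections. Replicates of si-ctrl had a median absolute log2 difference of 0.06 over the 30 members and those of si-Atad2 one of 0.07, while the knockdown difference was 0.19 in pair 1 and 0.17 in pair 2. Over all genes the same 4 medians were 0.06, 0.08, 0.105 and 0.07. The mean change was larger than both replicate differences for 20 of the 30 members, against 34.5% of all genes. The 10 exceptions were Pmvk, Cyp51, Tm7sf2, Nsdhl, Hsd17b7, Sc5d, Srebf1, Scap, Elovl6 and Fads1. Scd2 stood far above its replicate differences (0.08 and -0.09), whereas Fasn exceeded its own by little.

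**Figure D4:**
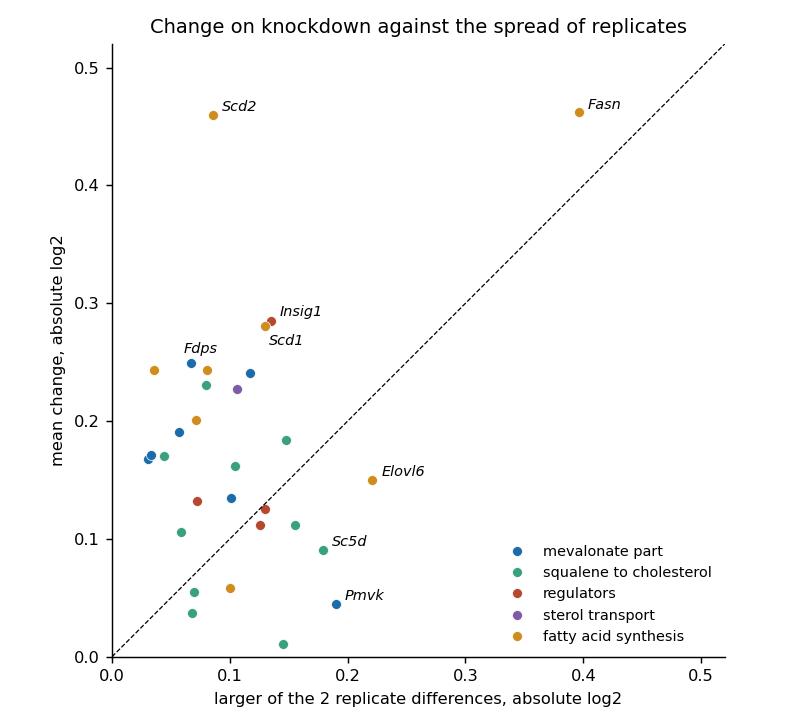
Absolute mean log2 ratio of each tested member (vertical) against the larger of its 2 replicate differences (horizontal, absolute log2), coloured by role, with a dashed line where both are equal. In all, 20 points lie above the line, Scd2 farthest from it, and Fasn lies to the right at 0.40.

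Counting error differed widely among the members. The half-width of the authors' 95% interval of the main transcript was between 1.33% (Fasn) and 19.3% (Tm7sf2) of its FPKM at most. The intervals were separate within both pairs, with si-Atad2 lower, for 15 of the 30 members, against 5.69% of all genes, and with si-Atad2 higher for 1, Insig1, against 4.6%. These intervals leave out the spread between libraries.

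Other measures moved with the libraries as well. Over all genes, the log2 ratio had a Spearman correlation with the GC content of the gene of -0.29 in pair 1 and 0.08 in pair 2, over 11134 genes that share the same libraries. Between the si-ctrl libraries (2 minus 1) it was -0.557, farther from 0 than in either pair, and between the si-Atad2 libraries 0.075. The median GC content of the members was 50.1%, where that of all genes was 50.3%. With the GC trend removed, 26 members were lower in both pairs, and their median log2 ratio was -0.17. In that setting 0 genes passed the adjusted threshold by limma. Among the markers of other cell types, the trophoblast list summed to 30.4 and 29.7 FPKM in si-ctrl and to 21.2 and 25.2 FPKM in si-Atad2. This came from Tfap2c, which ES cells also express and which fell from 24.2 to 15.7 FPKM and from 23.9 to 19.4 FPKM (adjusted p = 0.0461 by limma), the only one of its 3 tested genes to pass, while Cdx2, Elf5 and Gata3 stayed under 1 FPKM in every library. The part of these cells or of GC content in the differences of the members was not tested. In bulk RNA, fewer cells with high expression and less RNA per cell cannot be told apart.

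A further list of 47 genes of lipid metabolism, uptake, export and the control of SREBP, none of them members, was compared in the same way. Of the 44 that could be tested, 20 were lower in both pairs (45.5%), against 33.9% of all genes. In both pairs 8 were higher (18.2%), against 28.5%. At an unadjusted p under 0.05 by limma, 8 were lower (18.2%), against 7.53%, and 2 higher (4.55%), against 8.01%. Their median log2 ratio was -0.04. The other 3 had means under 1 FPKM. At the adjusted threshold by limma, 1 gene of the list fell (2.27% of 44), against 0.26% of all genes, and 0 rose, against 1.02%.

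Aacs, which activates acetoacetate for lipid synthesis, stood at 8.56 and 7.90 FPKM in si-ctrl and at 6.04 and 6.54 FPKM in si-Atad2 (mean log2 ratio -0.34, SE 0.079, adjusted p = 0.0921 by limma). Npc2, which moves cholesterol out of lysosomes, and Tecr, the reductase of fatty acid elongation, had mean log2 ratios of -0.24 and -0.22. That of Npc2 was -0.33 in pair 1 and -0.15 in pair 2. Acsl3, an acyl-CoA synthetase at under 2 FPKM, had a mean of -0.24 that rested on pair 2 (-0.40, against -0.08 in pair 1). Elovl5 and Abca1 went the other way. Elovl5, an elongase of polyunsaturated fatty acids, stood at 31.2 and 33.7 FPKM in si-ctrl and at 37.5 and 40.7 FPKM in si-Atad2 (mean log2 ratio 0.26, SE 0.060, adjusted p = 0.0915 by limma). Abca1, which exports cholesterol, stood at 1.64 and 1.65 FPKM in si-ctrl and at 2.23 and 1.99 FPKM in si-Atad2 (mean log2 ratio 0.23, adjusted p = 0.242 by limma).

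Insig2, the paralog of Insig1 and a gene of the same list, was named after its values were seen. Its log2 ratio was -0.07 in both pairs.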

How the data were processed

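Total RNA of 2 si-ctrl and 2 si-Atad2 libraries was sequenced with paired ends of 50 cycles. Per the labels, the authors used TopHat and Cuffdiff and the build mm9, and the supplement names Bowtie; versions are not given in the sources used here, and the deposited loci lie on GRCm38 coordinates. The authors' deposited FPKM values, with 95% intervals, come from 1 Cuffdiff run per pair over 59120 UCSC transcripts, each entered as its own gene. The 4 tables of the authors' own tests hold their fold changes, p and q values and were not used.

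Transcripts were named from GENCODE vM21 by matching length within 3 bases inside the locus (14879), by the locus's only coding gene (29588) or by nearest length (4857; within 10% of the length and with the next gene at least 4 times farther), and 9796 stayed unnamed. Rows of 200 bases or more were summed per gene. Genes of status OK throughout whose 4 libraries averaged 1 FPKM or more were tested with limma 3.58.1 in R 4.3.3 (lmFit on the 2 within-pair log2 ratios with a pseudocount of 1 FPKM, eBayes with its trend option, two-sided, Benjamini-Hochberg, threshold 0.05), after a check on simulated data. No count model was fitted, FPKM being normalized values. Use of the strand is not stated, so values of overlapping genes are uncertain. Some genes of the further list are not reported here. The members and lists were chosen with earlier results of these data known. Test values are named for members past the threshold and then for those of 1 sign in both pairs by size until 10, for Atad2, and for 6 further genes of 1 sign in both pairs by size; other members have levels or ranges. Python 3.11.15, pandas 2.3.3, numpy 2.4.6, scipy 1.17.1, statsmodels 0.14.6 and matplotlib 3.10.9 were used. Alternatives were other pseudocounts (0.1 and 5 FPKM), filters, scalings, row lengths and naming, GC trend removal, no replicate block, no eBayes trend, a threshold of 0.1 and leaving out each replicate.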

Additional observations from a re-analysis of the deposited data

How the results depend on the processing

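The number of changed genes (143, of which 114 higher and 29 lower) depended on the processing. It was 0 with no filter on the mean level, where 1940 genes had an unadjusted p under 0.05, 0 with the GC trend removed (1791), 9 with rows of all lengths (1393), 32 with matching length only (3660 genes tested), 85 with eBayes without a trend, 288 at a threshold of 0.1 and 216 without naming by nearest length. The number of changed members (1) was 0 with no filter, rows of all lengths, matching length only (8 members tested) and the GC trend removed, 3 at the threshold of 0.1 (Fasn, Scd1 and Scd2) and 2 without nearest-length naming (Fasn and Scd2). That of the further genes (1) was 0 under the same 4 settings and 3 at the threshold of 0.1 (Aacs and Elovl5 among them). Atad2 kept its log2 ratio at -1.531 with no filter and -1.555 with the GC trend removed, but its adjusted p by limma was then 0.303 and 0.0558. The members' median was -0.129 with a pseudocount of 5 FPKM and -0.132 after rescaling to TPM. With matching length only, 8 of 8 tested members were lower in both pairs and 4 at an unadjusted p under 0.05. The cause of these shifts was not tested. Of Atad2 and the 17 other genes followed through the settings that gave them a value, none changed the sign of its mean ratio; the remaining genes were not followed singly, and the members lower in both pairs numbered 21 after rescaling to TPM.

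Leaving out a replicate leaves 1 pair and no test, so counts could not be given. The members' median was then between -0.148 and -0.192, and Atad2 between -1.400 and -1.661. The pairing comes from the authors' Cuffdiff runs; over 11134 genes, libraries with the same number deviated from the group mean with Pearson's r = -0.063 and Spearman's rho = -0.040, so the values show no shared deviation. With no replicate block, 162 genes, 1 member and 1 further gene changed, the members' median stayed at -0.165 and Atad2 at -1.531. Naming by nearest length and the counts of members lower in both pairs or at an unadjusted p were chosen after seeing the data.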
